A study of Mus musculus with 4 samples.

Results

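The 10 genes described here encode proteins of the intestinal absorptive cell, and they were measured in stomach. They are the fatty acid binding proteins Fabp1 and Fabp2, the intestinal alkaline phosphatases Akp3 and Alpi, the disaccharidases Sis (sucrase-isomaltase) and Lct (lactase), and the peptidases Mep1a, Mep1b, Anpep and Dpp4. The list was set by name, with earlier results of these data known, so member counts set beside shares of all genes are descriptions only. Each gene was read from its probe set with 1 gene symbol in the platform annotation. All 10 were measured, each by 1 probe set, among 22180 genes. The study compared stomach tissue of Hdc-/- mice (2 arrays) with stomach tissue of Hdc+/+ mice (2 arrays). The product of Hdc, histidine decarboxylase, turns histidine into histamine. All 4 samples were from FVB mice 1 year old, and the labels name neither the region of the stomach sampled nor the design of the Hdc allele. Arrays of 1 genotype are titled as biological replicates with no animal named, so a p-value measures the spread between these samples only. All values are log2 probe set values normalized with RMA (robust multi-array average) by the authors, and differences between genotypes are Hdc-/- minus Hdc+/+ on that log2 scale.

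Enterocytes, the absorptive cells of the small intestine, carry a dense brush border of microvilli on the side that faces the gut lumen. Enzymes anchored in that membrane finish the digestion of sugars, peptides and phosphate esters, and small binding proteins inside the cell carry the absorbed fatty acids. The normal stomach lining of the mouse consists of gastric glands and squamous forestomach and has no brush border of this kind. Several of these genes are also active outside the intestine. Fabp1 is abundant in hepatocytes, the meprins are abundant in mouse kidney, and Dpp4 and Anpep are carried by many immune and stromal cells. In bulk tissue, fewer cells of a type and less RNA per cell cannot be told apart.

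The arrays were alike in overall level, with medians over all probe sets from 4.05 to 4.15. Hdc itself read 3.77 and 4.06 on the Hdc-/- arrays and 3.99 and 3.82 on the Hdc+/+ arrays, so it did not check the genotype labels, on which every direction below rests. Gastric markers were strong throughout: the proton pump gene Atp4a read 10.70 and 10.83 on the Hdc-/- arrays and 11.08 and 10.42 on the Hdc+/+ arrays, and the pit cell gene Gkn2 lay between 13.23 and 13.35 on all 4. The arrays of each genotype also differed from each other. Hdc+/+ replicate 2 was at least 1 log2 unit above replicate 1 for 452 genes, 2.04% of all genes, and at least 1 log2 unit below it for 79. The Hdc-/- arrays were at least 1 log2 unit apart, in either direction, for 452 genes (2.04%). The members' differences and the medians of the absorption lists are also given with single arrays left out.

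The sequence before the annotated start is shown for 4 members that read higher on both Hdc+/+ arrays than on both Hdc-/- arrays (Fabp1, Akp3, Alpi and Sis) and for Anpep, which did not. The sequences are from RefSeq on GRCm38.p6, and 9 of the 10 members had an entry in its promoter table, all but Mep1b. Each runs 5′ to 3′ on the strand of the gene and covers the 250 bases that end just before the start used in that table. Among the 9 entries that start equals the outermost start in the gene table for 7, and it lies 84 bases inside the gene for Dpp4 and 1370 bases inside it for Mep1a. Capitals mark matches, on either strand, to any of 4 short motifs. They include TATAAA (the letters of the TATA box) and TTTATG (a core bound by CDX factors). The others are CAAAGTCCA (a site of HNF4 factors) and AGATAA (bound by factors of the GATA family). The Fabp1 window lies at chr6:71199629-71199878 on the plus strand, Akp3 at chr1:87124704-87124953 on the plus strand, Alpi at chr1:87101607-87101856 on the minus strand, Sis at chr3:72967864-72968113 on the minus strand and Anpep at chr7:79848211-79848460 on the minus strand.
Fabp1: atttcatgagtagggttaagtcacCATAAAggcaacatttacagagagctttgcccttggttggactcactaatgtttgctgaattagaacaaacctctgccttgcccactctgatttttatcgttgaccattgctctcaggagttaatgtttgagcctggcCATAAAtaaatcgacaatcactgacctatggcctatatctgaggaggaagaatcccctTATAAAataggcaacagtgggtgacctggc
Akp3: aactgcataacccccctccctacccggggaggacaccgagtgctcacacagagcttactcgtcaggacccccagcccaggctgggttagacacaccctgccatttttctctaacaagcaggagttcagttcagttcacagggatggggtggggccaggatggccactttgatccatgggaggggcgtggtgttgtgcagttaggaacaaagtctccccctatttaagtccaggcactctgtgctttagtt
Alpi: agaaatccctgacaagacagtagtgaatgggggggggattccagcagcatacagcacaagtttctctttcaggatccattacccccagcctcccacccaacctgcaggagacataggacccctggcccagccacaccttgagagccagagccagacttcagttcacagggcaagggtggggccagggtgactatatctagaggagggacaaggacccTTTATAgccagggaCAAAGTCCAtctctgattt
Sis: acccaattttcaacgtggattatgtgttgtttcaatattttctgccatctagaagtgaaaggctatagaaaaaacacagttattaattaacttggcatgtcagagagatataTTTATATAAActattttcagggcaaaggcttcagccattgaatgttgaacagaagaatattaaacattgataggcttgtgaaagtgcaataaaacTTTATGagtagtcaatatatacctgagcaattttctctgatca
Anpep: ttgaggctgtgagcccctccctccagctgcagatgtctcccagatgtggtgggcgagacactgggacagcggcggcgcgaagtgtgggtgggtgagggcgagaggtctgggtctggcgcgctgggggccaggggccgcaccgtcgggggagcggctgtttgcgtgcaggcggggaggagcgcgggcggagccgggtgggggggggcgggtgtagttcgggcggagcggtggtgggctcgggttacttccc
TATAAA lay in 4 of the 9 windows searched (Alpi, Dpp4, Sis and Fabp1), against 12.4% of 32851 promoter windows of the same length. In Fabp1 the match lay 30 to 25 bases before the start used, and in Alpi 33 to 28, on the opposite strand. In Sis matches on the 2 strands overlap each other, 138 to 129 bases before it. In Dpp4 the match lay 227 to 222 bases before it. The search set no position for a match. TTTATG lay in 3 (Lct, Sis and Fabp1; 10.8% of all windows), AGATAA in 2 (Lct and Dpp4; 9.99%) and CAAAGTCCA in 1 (Alpi; 0.384%). The windows of Akp3, Fabp2, Anpep and Mep1a held no match, which says only that these letters are not there. Akp3 and Alpi are neighbours with no gene between them in the gene table of GRCm38.p6, and they run in opposite directions with 23347 bases between their annotated starts. Their windows were 52.3% identical in a global alignment, against 36.9% to 49.6% for the other 35 pairs of members.

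Most brush border and absorption genes read lower on the Hdc-/- arrays, but no difference passed the test over all genes. Of the 10 members, 6 had both Hdc-/- values below both Hdc+/+ values (Fabp1, Fabp2, Akp3, Alpi, Sis and Dpp4), against 17.6% of all genes, and 0 had both above, against 21.5%. limma called 0 of the 10 lower at an adjusted p under 0.05 (0.00% of all genes) and 0 higher (0.00451%). At an unadjusted p under 0.05 it counted 5 lower (Fabp1, Fabp2, Akp3, Alpi and Dpp4), against 4.87% of all genes, and 0 higher, against 3.68%. The median difference of the 10 was -2.43 on the log2 scale, against 0.02 over all genes. Without Hdc+/+ replicate 2 that median was -1.12, and 6 members were lower at an unadjusted p under 0.05 (3.16% of all genes). Without Hdc+/+ replicate 1, limma called 4 members lower at an adjusted p under 0.05 (Fabp1, Akp3, Alpi and Sis), against 0.712% of all genes, with Hdc+/+ represented by the lone replicate 2, which was taken to vary like the Hdc-/- arrays.

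**Figure D1:**
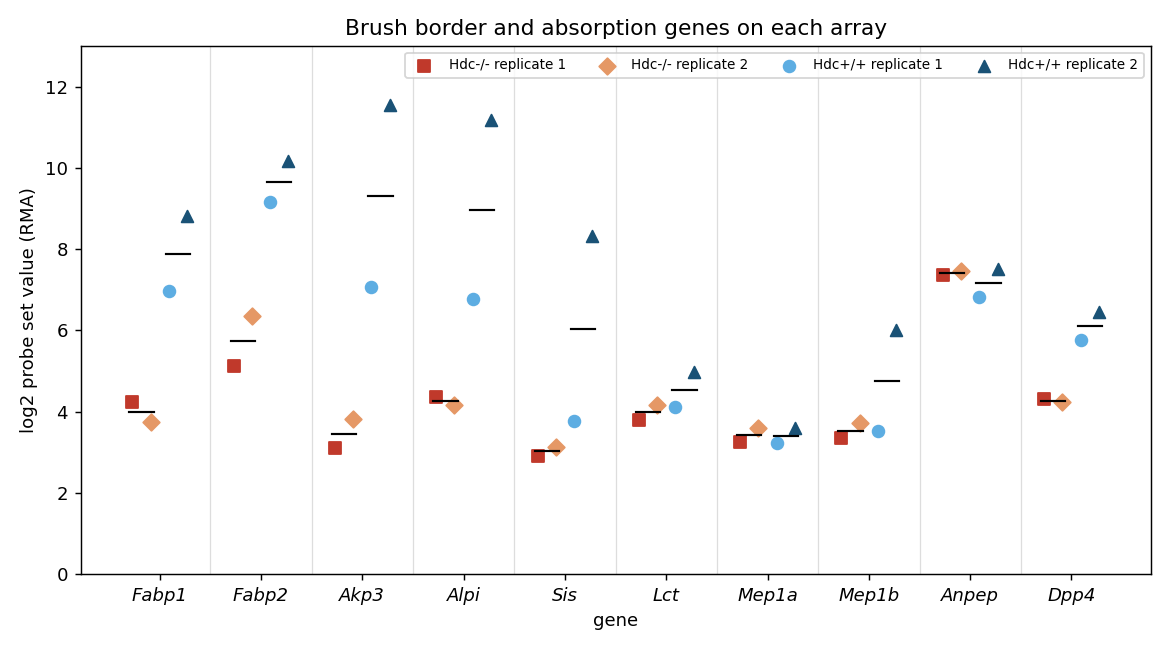
Log2 probe set value (y axis) of each brush border and absorption gene (x axis) on the 4 arrays; squares and diamonds are Hdc-/- arrays, circles and triangles Hdc+/+ arrays, and black bars are group means of 2 arrays. Akp3, Alpi and Sis spread over more than 4 log2 units between the Hdc+/+ arrays, while Mep1a and Anpep stayed within 0.68 over all 4.

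The fatty acid binding proteins differed between the genotypes on both Hdc+/+ arrays. Fabp1, the liver-type binding protein that enterocytes and hepatocytes share, read 4.24 and 3.74 on the Hdc-/- arrays, against 6.96 and 8.82 on the Hdc+/+ arrays. Fabp2, the intestinal type, read 5.12 and 6.35 on the Hdc-/- arrays, against 9.15 and 10.16 on the Hdc+/+ arrays. The Hdc-/- values of Fabp1, like those of Akp3, Alpi, Sis and Dpp4, lay below the median gene of their arrays, and with no background values used here no fold between genotypes is given for the members. Neither binding protein gene overlapped between the genotypes, and the lower Hdc+/+ value was more than 2 log2 units above the higher Hdc-/- value in both. The Fabp1 difference was -3.91 (SE 0.60, n = 2 each; limma adjusted p = 0.256), and it was -2.97 without Hdc+/+ replicate 2. The Fabp2 difference was -3.92 (SE 0.50, adjusted p = 0.247), and it was -3.42 without Hdc+/+ replicate 2. Fabp2 was the member with the widest spread between the Hdc-/- arrays, at 1.23 log2 units. Its spread between the Hdc+/+ arrays was smaller, at 1.01.

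The phosphatases had the largest differences of the 10 and, with Sis, the widest spread between the Hdc+/+ arrays. Akp3, the duodenal intestinal alkaline phosphatase of the mouse, read 3.11 and 3.82 on the Hdc-/- arrays, against 7.07 and 11.55 on the Hdc+/+ arrays. Alpi, which encodes the second intestinal alkaline phosphatase, read 4.37 and 4.15 on the Hdc-/- arrays, against 6.77 and 11.17 on the Hdc+/+ arrays. Both genes were low on both Hdc-/- arrays, intermediate on Hdc+/+ replicate 1 and high on Hdc+/+ replicate 2. Hdc+/+ replicate 2 exceeded replicate 1 by 4.48 for Akp3 (22.3-fold) and by 4.40 for Alpi (21.1-fold), and both sizes lay at the 99.9th percentile over all genes. The Akp3 difference between genotypes was -5.85 (SE 1.36, adjusted p = 0.384). It was -3.61 without Hdc+/+ replicate 2 and -8.09 without Hdc+/+ replicate 1. The Alpi difference was -4.70 (SE 1.32, adjusted p = 0.451), and it was -2.50 and -6.90 without those same arrays. The 2 phosphatases belong to a family of closely similar genes, so a share of each signal could come from the other.

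The disaccharidases parted from each other. Sis, which splits sucrose and starch fragments, read 2.91 and 3.13 on the Hdc-/- arrays, against 3.78 and 8.31 on the Hdc+/+ arrays. Only Hdc+/+ replicate 2 was high, and replicate 1 lay 0.76 above the Hdc-/- mean, against 5.29 for replicate 2. The Sis difference between genotypes was -3.02 (SE 1.36, adjusted p = 0.612), with a 95% limma interval from -6.41 to 0.37. It was -0.76 without Hdc+/+ replicate 2 and -5.29 without Hdc+/+ replicate 1. Lct, which splits milk sugar and falls after weaning in most mammals, read 3.80 and 4.16 on the Hdc-/- arrays, against 4.11 and 4.97 on the Hdc+/+ arrays. Its groups overlapped, and its difference of -0.56 (SE 0.32, adjusted p = 0.683) had an interval from -1.35 to 0.24. The excess of Hdc+/+ replicate 2 over replicate 1 was 4.54 for Sis, at the 99.95th percentile over all genes, and 0.86 for Lct, at the 96.9th.

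The peptidases held the members that varied least. Mep1a, the alpha subunit of the metalloprotease meprin, read 3.25 and 3.60 on the Hdc-/- arrays, against 3.23 and 3.59 on the Hdc+/+ arrays, below each array's median gene throughout. Mep1b, the membrane-bound beta subunit, read 3.35 and 3.73 on the Hdc-/- arrays, against 3.54 and 5.998 on the Hdc+/+ arrays. Mep1b stood out on Hdc+/+ replicate 2 alone, 2.46 above replicate 1, while Mep1a was 0.37 above it. The Mep1b difference between genotypes was -1.23 (SE 0.76, adjusted p = 0.706), and without Hdc+/+ replicate 2 it was 0.0011. The Mep1a difference was 0.02 (SE 0.22, adjusted p = 0.992), with an interval from -0.52 to 0.56.

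Anpep, aminopeptidase N, was well expressed on every array, at 7.37 and 7.46 on the Hdc-/- arrays, against 6.83 and 7.51 on the Hdc+/+ arrays. Its difference of 0.25 (SE 0.26, adjusted p = 0.846) had an interval from -0.39 to 0.89, and the groups overlapped. Dpp4, dipeptidyl peptidase 4, read 4.30 and 4.25 on the Hdc-/- arrays, against 5.76 and 6.45 on the Hdc+/+ arrays. It was the member with the closest agreement within the genotypes among those without overlap, with arrays 0.06 apart in Hdc-/- and 0.69 apart in Hdc+/+. The Dpp4 difference was -1.83 (SE 0.26, adjusted p = 0.247), and it was -1.49 without Hdc+/+ replicate 2. Across the 10 genes Dpp4 ranked 46th and Fabp2 24th by unadjusted p among all 22180 genes.

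Between the Hdc+/+ arrays, all 10 members were higher on replicate 2. The median of that difference was 1.44, against -0.03 over all genes, and 6 members were at least 1 log2 unit higher (2.04% of all genes): Sis, Akp3, Alpi, Mep1b, Fabp1 and Fabp2. At least 2 log2 units separated the arrays for 4 of them, Sis, Akp3, Alpi and Mep1b, against 0.667% of all genes. Between the Hdc-/- arrays 1 member, Fabp2, differed by at least 1 log2 unit, against 2.04% of all genes, and 7 of 10 were higher on replicate 2. Summed on the linear scale, the 10 genes gave 309 and 374 intensity units on the Hdc-/- arrays, against 1156 and 7600 on the Hdc+/+ arrays. Akp3 and Alpi, at 11.55 and 11.17 on Hdc+/+ replicate 2, made up most of its sum. Anpep, at 7.37 and 7.46, was the largest part of each Hdc-/- sum. Hdc+/+ replicate 2 was the highest of the 4 arrays for 9 members, against 19.8% of all genes, the exception being Mep1a.

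**Figure D2:**
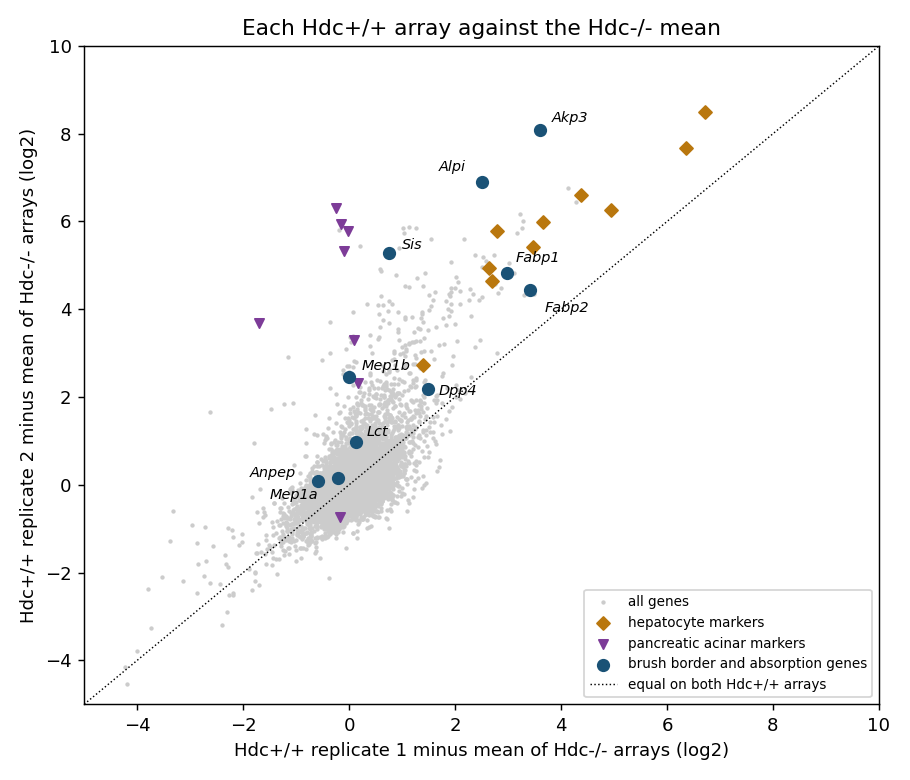
Difference of Hdc+/+ replicate 1 (x axis) and of Hdc+/+ replicate 2 (y axis) from the mean of the Hdc-/- arrays, on the log2 scale, for all genes (grey), the 10 brush border and absorption genes (circles), hepatocyte markers (diamonds) and pancreatic acinar markers (triangles); both axes share the Hdc-/- mean. Fabp1 (2.97 and 4.84) and Fabp2 (3.42 and 4.43) lie among the hepatocyte markers, while Sis (0.76 and 5.29) and Mep1b (0.00 and 2.46) were raised almost only on replicate 2. Akp3 (3.61 and 8.09) and Alpi (2.50 and 6.90) were raised on both arrays, more so on replicate 2.

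Genes with the profile most like each member were taken as the 3 with the smallest root mean square distance between mean-centred log2 values over the 4 arrays, for the 7 members whose range was at least 2 log2 units. For Fabp1 they were Apob (distance 0.16 log2 units), Ces1c (0.23) and Cyp2j5 (0.25), and for Fabp2 they were Cdo1 (0.28), Cyp2e1 (0.38) and Apoh (0.48). The nearest genes to Akp3 were S100g (0.73), Sult3a1 (0.80) and Cyp2c29 (0.88), and to Alpi they were Cyp2c69 (0.53), Sult3a1 (0.56) and Cps1 (0.58). Neither phosphatase had a gene outside the 10 as near as those of the binding proteins. S100g, which encodes the calcium carrier calbindin-D9k, read 4.23 and 4.18 on the Hdc-/- arrays, against 8.33 and 10.97 on the Hdc+/+ arrays. For Sis the nearest were Tm4sf20 (0.08), Slc13a1 (0.21) and Mme (0.21), and for Mep1b they were Nlrp6 (0.10), Try4 (0.11) and Cuzd1 (0.11). Tm4sf20 read 3.25 and 3.45 on the Hdc-/- arrays, against 4.29 and 8.74 on the Hdc+/+ arrays. For Dpp4 the nearest were Gdpd3 (0.08), Maob (0.09) and Vstm2b (0.14).

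Other genes of intestinal absorption were read from 5 lists, of which 70 of 75 genes were measured. These lists, and the marker lists below, were also chosen with earlier results of these data known, so their counts are descriptions only. limma called 0 of the 70 at an adjusted p under 0.05 in either direction. At an unadjusted p under 0.05, 22 were lower in Hdc-/- stomach (4.87% of all genes) and 0 higher (3.68%), and 42 had both Hdc-/- values below both Hdc+/+ values (17.6%). The lower count was 12 without Hdc+/+ replicate 2 (3.16% of all genes), 47 without Hdc+/+ replicate 1 (4.63%), 10 without Hdc-/- replicate 1 (4.84%) and 10 without Hdc-/- replicate 2 (4.11%). Without Hdc+/+ replicate 1, limma called 12 lower at an adjusted p under 0.05 (0.712% of all genes). The median difference of the 70 between genotypes was -0.70, against 0.02 over all genes. Hdc+/+ replicate 2 was at least 1 log2 unit above replicate 1 for 31 of the 70 (2.04% of all genes).

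Further brush border hydrolases had a median difference between genotypes of -0.72. Of 13 measured genes, 8 had both Hdc-/- values below both Hdc+/+ values (17.6% of all genes), and 4 were lower at an unadjusted p under 0.05 (4.87%). That last count was 2 with a trended and robust prior (4.72% of all genes). That median difference was -0.39 without Hdc+/+ replicate 2, -1.28 without Hdc+/+ replicate 1, -0.55 without Hdc-/- replicate 1 and -0.94 without Hdc-/- replicate 2. The differences of Mme, Mgam and Enpp3 were -0.60, -0.74 and -0.84 without Hdc+/+ replicate 2. Mme, the endopeptidase neprilysin, read 3.50 and 4.03 on the Hdc-/- arrays, against 4.36 and 8.63 on the Hdc+/+ arrays (difference -2.73, SE 1.29, adjusted p = 0.626). Mgam, the maltase-glucoamylase that works beside sucrase-isomaltase, read 3.74 and 3.42 on the Hdc-/- arrays, against 4.32 and 7.76 on the Hdc+/+ arrays (difference -2.46, SE 1.04, adjusted p = 0.594). Both were high on Hdc+/+ replicate 2 alone, as Sis was. Enpp3, a nucleotide pyrophosphatase, read 6.11 and 5.47 on the Hdc-/- arrays, against 6.64 and 8.79 on the Hdc+/+ arrays (difference -1.92, SE 0.69, adjusted p = 0.543).

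Genes that build the microvillus had a median difference between genotypes of -0.61. Of 13 genes, 7 had both Hdc-/- values below both Hdc+/+ values (17.6% of all genes), and 3 were lower at an unadjusted p under 0.05 (4.87%). That median difference was -0.21 without Hdc+/+ replicate 2, -0.73 without Hdc+/+ replicate 1, -0.58 without Hdc-/- replicate 1 and -0.57 without Hdc-/- replicate 2. The differences of Cdhr2 and Cdhr5 were 0.35 and -0.40 without Hdc+/+ replicate 2. Cdhr5 and Cdhr2 encode the protocadherins that link neighbouring microvilli at their tips. Cdhr5 read 4.60 and 4.32 on the Hdc-/- arrays, against 4.86 and 7.88 on the Hdc+/+ arrays (difference -1.91, SE 0.92, adjusted p = 0.628). Cdhr2 read 4.30 and 3.998 on the Hdc-/- arrays, against 3.80 and 7.85 on the Hdc+/+ arrays, where replicate 1 was the lowest of the 4. Anks4b, a scaffold of the same link complex, read 4.91 and 3.87 on the Hdc-/- arrays, against 5.62 and 5.94 on the Hdc+/+ arrays. Ezr, the membrane linker ezrin, which gastric cells also use, differed by -0.09 (SE 0.17, adjusted p = 0.934).

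Of the 5 lists, transporters had the largest median excess of Hdc+/+ replicate 2 over replicate 1, 1.47 log2 units. All 19 measured genes were higher there than on replicate 1, 15 of them by at least 1 log2 unit (2.04% of all genes), while 2 were lower in Hdc-/- stomach at an unadjusted p under 0.05 (4.87%). That last count was 0 with a trended and robust prior (4.72% of all genes). The median difference between genotypes was -0.51 on all 4 arrays. It was -0.10 without Hdc+/+ replicate 2, -1.47 without Hdc+/+ replicate 1, -0.75 without Hdc-/- replicate 1 and -0.54 without Hdc-/- replicate 2. The differences of Slc26a3, Slc40a1 and Slc2a2 were -1.13, -1.43 and -1.58 without Hdc+/+ replicate 2. Slc26a3, a chloride and bicarbonate exchanger, read 3.50 and 4.16 on the Hdc-/- arrays, against 4.96 and 9.70 on the Hdc+/+ arrays (difference -3.50, SE 1.44, adjusted p = 0.588). Slc40a1, the iron exporter ferroportin, read 4.47 and 4.18 on the Hdc-/- arrays, against 5.75 and 9.15 on the Hdc+/+ arrays (difference -3.13, SE 1.03, adjusted p = 0.505). Slc2a2, the glucose transporter of the enterocyte's basolateral side and of hepatocytes, read 4.07 and 3.79 on the Hdc-/- arrays, against 5.51 and 8.13 on the Hdc+/+ arrays (difference -2.89, SE 0.80, adjusted p = 0.451). Cybrd1, an iron reductase, stayed between 9.74 and 9.96 on all 4 arrays.

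A pair of apical transporters, named after their values were seen, followed another order. Slc5a1, the sodium-coupled glucose transporter, read 6.66 and 3.68 on the Hdc-/- arrays, against 4.11 and 7.03 on the Hdc+/+ arrays. Slc15a1, the peptide transporter, read 6.69 and 3.20 on the Hdc-/- arrays, against 3.72 and 6.80 on the Hdc+/+ arrays. Each was high on Hdc-/- replicate 1 and Hdc+/+ replicate 2 and low on the other 2 arrays, and the differences between genotypes were -0.40 (SE 1.25) and -0.31 (SE 1.40). On Hdc-/- replicate 1, Akp3 read 3.11 and Sis 2.91.

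Nearly all lipid absorption genes were higher on both Hdc+/+ arrays than on both Hdc-/- arrays. Of 14 genes, 13 had both Hdc-/- values below both Hdc+/+ values (17.6% of all genes), and 10 were lower at an unadjusted p under 0.05 (4.87%). The median difference between genotypes was -0.82 on all 4 arrays. It was -0.58 without Hdc+/+ replicate 2, -1.05 without Hdc+/+ replicate 1, -0.87 without Hdc-/- replicate 1 and -0.94 without Hdc-/- replicate 2. The differences of Apob and Mttp were -3.10 and -0.73 without Hdc+/+ replicate 2. Apob, the scaffold of chylomicrons and of liver lipoproteins, read 5.9996 and 5.09 on the Hdc-/- arrays, against 8.65 and 10.36 on the Hdc+/+ arrays (difference -3.96, SE 0.60, adjusted p = 0.256). All 10 hepatocyte markers described below also had both Hdc-/- values below both Hdc+/+ values. The part of hepatocyte RNA in the values of the lipid absorption list was not tested. Mttp, which loads lipid onto apolipoprotein B, read 4.03 and 3.95 on the Hdc-/- arrays, against 4.72 and 7.95 on the Hdc+/+ arrays (difference -2.35, SE 0.98, adjusted p = 0.591). Cd36, a fatty acid receptor that adipocytes and endothelium also carry, read 6.42 and 6.44 on the Hdc-/- arrays, against 7.75 and 8.06 on the Hdc+/+ arrays (difference -1.48, SE 0.18, adjusted p = 0.247). Rbp2, the retinol carrier of enterocytes, had a difference of -0.79 (SE 0.29, adjusted p = 0.547). Fabp6, the bile acid carrier of the ileum, lay between 3.21 and 3.76 on all 4 arrays and below each array's median gene, as did Slc10a2, the ileal bile acid transporter, between 2.20 and 2.67.

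Transcription factors of enterocytes had the median difference nearest to 0 of the 5 lists, -0.20. Of 11 measured genes, 5 had both Hdc-/- values below both Hdc+/+ values (17.6% of all genes), 1 had both above (21.5%), and 3 were lower at an unadjusted p under 0.05 (4.87%). That last count was 2 with a trended and robust prior (4.72% of all genes). The list median was -0.09 without Hdc+/+ replicate 2, -0.32 without Hdc+/+ replicate 1, -0.16 without Hdc-/- replicate 1 and -0.24 without Hdc-/- replicate 2. The differences of Vdr and Hnf4g were -0.014 and -0.48 without Hdc+/+ replicate 2. Vdr, the vitamin D receptor, read 4.51 and 4.27 on the Hdc-/- arrays, against 4.40 and 7.75 on the Hdc+/+ arrays (difference -1.69, SE 1.01, adjusted p = 0.696). Hnf4g, a nuclear receptor of enterocytes, read 6.03 and 6.14 on the Hdc-/- arrays, against 6.57 and 8.08 on the Hdc+/+ arrays (difference -1.24, SE 0.48, adjusted p = 0.570). Nr1h4, the bile acid receptor, read 5.08 and 4.93 on the Hdc-/- arrays, against 5.9985 and 6.36 on the Hdc+/+ arrays (difference -1.17, SE 0.19, adjusted p = 0.279). Cdx2, the factor that sets intestinal identity, read 4.29 and 4.36 on the Hdc-/- arrays, against 4.41 and 4.63 on the Hdc+/+ arrays, and Cdx1 lay between 4.39 and 4.62 on all 4. Gata6, which stomach also expresses, differed by -0.07 (SE 0.16, adjusted p = 0.950).

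**Figure D3:**
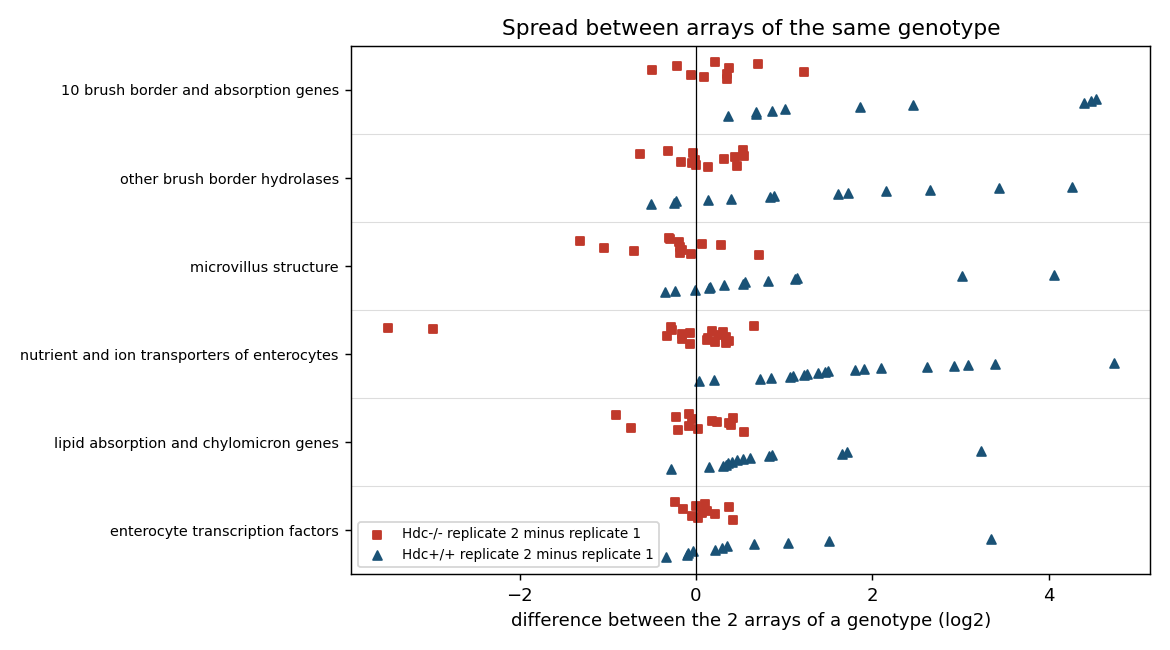
Difference between the arrays of a genotype on the log2 scale (x axis) for each gene of 6 lists (y axis); squares are Hdc-/- replicate 2 minus replicate 1 and triangles Hdc+/+ replicate 2 minus replicate 1. The Hdc+/+ points of the 10 brush border and absorption genes all lie above 0 and reach 4.54, while their Hdc-/- points lie between -0.50 and 1.23; the pair of transporters near -3 and below in Hdc-/- is Slc5a1 and Slc15a1.

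Hepatocyte markers were higher on both Hdc+/+ arrays, and most pancreatic acinar markers on Hdc+/+ replicate 2 alone. Relative to the Hdc-/- mean, the median of the acinar list was -0.13 on Hdc+/+ replicate 1 and 4.51 on replicate 2. All 10 hepatocyte markers had both Hdc-/- values below both Hdc+/+ values (17.6% of all genes), with linear sums of 276 and 454 on the Hdc-/- arrays, against 4477 and 13520 on the Hdc+/+ arrays. Among them the urea cycle gene Cps1 read 3.57 and 3.91 on the Hdc-/- arrays, against 6.53 and 9.52 on the Hdc+/+ arrays, and the fibrinogen gene Fgb read 3.48 and 3.54 on the Hdc-/- arrays, against 7.18 and 9.50 on the Hdc+/+ arrays. Of 8 pancreatic acinar markers measured, 7 were at least 2 log2 units higher on Hdc+/+ replicate 2 than on replicate 1 (0.667% of all genes). The list summed to 4314 and 4869 on the Hdc-/- arrays, against 4028 and 8752 on the Hdc+/+ arrays, and Clps, at 11.38 to 12.20 on all 4 arrays, made up most of the 3 lower sums. The carboxypeptidase genes Cpb1 and Cpa1 read 9.95 and 10.20 on Hdc+/+ replicate 2 and from 3.40 to 4.47 on the other arrays. Their part in the values of the brush border genes was not tested.

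Other cells of the intestinal lining were read from goblet and Paneth markers. Zg16, a goblet cell secretory protein, read 3.39 and 3.75 on the Hdc-/- arrays, against 3.78 and 9.02 on the Hdc+/+ arrays, and the trefoil gene Tff3 read 4.94 and 4.72 on the Hdc-/- arrays, against 4.81 and 6.82 on the Hdc+/+ arrays. Both were high on Hdc+/+ replicate 2 alone. The 7 goblet markers summed to 7571 and 1804 on the Hdc-/- arrays, against 2770 and 3756 on the Hdc+/+ arrays. Clca1, Agr2 and Spink4, at 11.87, 11.15 and 10.41 on Hdc-/- replicate 1, made up most of each sum, and the other 4 markers summed to 191 and 143 on the Hdc-/- arrays, against 241 and 1107 on the Hdc+/+ arrays. Of the 7, 5 had a difference between genotypes below 0. Of 5 Paneth markers measured, the lysozyme gene Lyz1 read 3.55 and 4.31 on the Hdc-/- arrays, against 3.78 and 5.28 on the Hdc+/+ arrays, and the lectin gene Itln1 read 9.56 and 4.51 on the Hdc-/- arrays, against 4.16 and 5.71 on the Hdc+/+ arrays. Mmp7 and Ang4 were below each array's median gene throughout. The Paneth list summed to 817 and 96.5 on the Hdc-/- arrays, against 81.3 and 157 on the Hdc+/+ arrays, and without Itln1 to 61.8 and 73.7 on the Hdc-/- arrays, against 63.4 and 104 on the Hdc+/+ arrays.

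The sums of kidney and gastric markers were not higher on both Hdc+/+ arrays, while the sum of squamous markers was. Of 7 kidney tubule markers, 5 were below each array's median gene on all 4 arrays (Slc34a1, Slc22a6, Kap, Slc12a1 and Lrp2), and the list summed to 119 and 125 on the Hdc-/- arrays, against 113 and 120 on the Hdc+/+ arrays. The 10 gastric gland and pit markers summed to 46405 and 47087 on the Hdc-/- arrays, against 46477 and 42051 on the Hdc+/+ arrays. Of them, 2 (Cblif and Pgc) had both Hdc-/- values above both Hdc+/+ values (21.5% of all genes), and 1 (Gkn1) had both below (17.6%). Cblif differed by 1.07 (SE 0.25, limma adjusted p = 0.396) and Pgc by 0.64 (SE 0.25, adjusted p = 0.582). Muc6, a mucin of gastric neck and gland cells, read 11.94 and 8.90 on the Hdc-/- arrays, against 8.40 and 9.30 on the Hdc+/+ arrays. The 6 squamous markers measured summed to 92.2 and 110 on the Hdc-/- arrays, against 212 and 297 on the Hdc+/+ arrays. Krt14 and Trp63 among them were below each array's median gene throughout. Of the 6, 5 had both Hdc-/- values below both Hdc+/+ values (17.6% of all genes). limma counted 5 lower at an unadjusted p under 0.05 (4.87%). The keratin gene Krt4 read 4.22 and 4.62 on the Hdc-/- arrays, against 6.43 and 6.70 on the Hdc+/+ arrays. The cornified envelope gene Sprr3 read 1.63 and 3.58 on the Hdc-/- arrays, against 4.57 and 5.53 on the Hdc+/+ arrays, and the keratin gene Krt13 read 4.81 and 4.83 on the Hdc-/- arrays, against 5.26 and 5.89 on the Hdc+/+ arrays. Beside Dpp4 and Anpep, the 8 T cell and fibroblast markers summed to 993 and 1144 on the Hdc-/- arrays, against 1511 and 1502 on the Hdc+/+ arrays, with Cd3d below each array's median gene throughout. Dcn, a matrix proteoglycan of fibroblasts, made up most of each sum, at 9.11 and 9.48 on the Hdc-/- arrays, against 10.15 and 10.09 on the Hdc+/+ arrays. Without it the sums were 440 and 431 on the Hdc-/- arrays, against 378 and 414 on the Hdc+/+ arrays, and 5 of the 8 markers had a difference above 0. Both Hdc-/- values were above both Hdc+/+ values for 3 of the 8 (21.5% of all genes) and below for 2, Dcn and Col3a1 (17.6%). Col3a1 read 6.81 and 6.59 on the Hdc-/- arrays, against 6.99 and 6.87 on the Hdc+/+ arrays. The T cell gene Cd3e read 5.80 and 6.16 on the Hdc-/- arrays, against 4.82 and 5.47 on the Hdc+/+ arrays. The fibroblast gene Pdgfra read 6.46 and 6.39 on the Hdc-/- arrays, against 5.82 and 6.55 on the Hdc+/+ arrays.

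**Figure D4:**
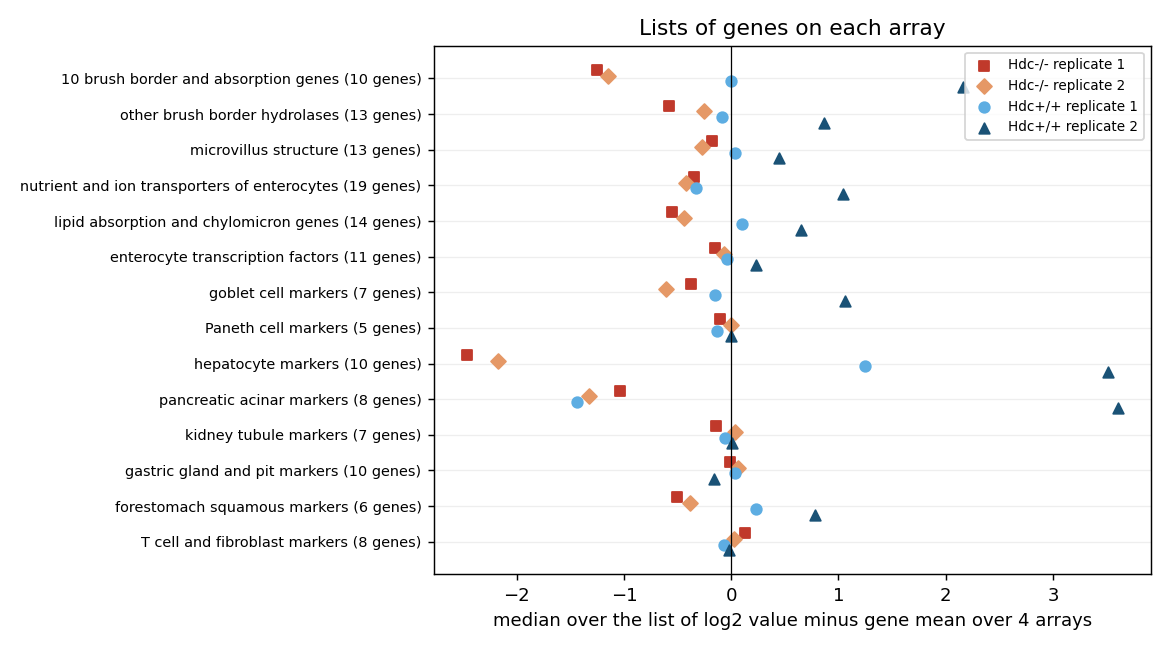
Median over each list of the log2 value minus the gene's mean over the 4 arrays (x axis) for 14 lists (y axis); squares and diamonds are Hdc-/- arrays, circles and triangles Hdc+/+ arrays. The 10 brush border and absorption genes had medians of -1.25 and -1.15 on the Hdc-/- arrays and 0.00 and 2.16 on the Hdc+/+ arrays; hepatocyte markers had -2.47 and -2.18 on the Hdc-/- arrays and 1.25 and 3.51 on the Hdc+/+ arrays.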

How the data were processed

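Total RNA of 4 stomach samples, extracted with Trizol, was turned into biotin-labelled cDNA and read on Affymetrix arrays, per the labels. The deposited values are log2 probe set values, normalized by the authors with RMA, per the submitters' processing notes. Those notes list the tools oligo and Affymetrix Power Tools, with no version. Any filter and the annotation's build were not given in the sources used here. The number of arrays limits the precision. Of 41345 probe sets, 23521 had 1 gene symbol, and the one with the highest mean over the 4 arrays stood for its gene (22180 genes). No dim gene was left out. Differences were fitted with limma (version 3.58.1 in R 4.3.3; lmFit and eBayes, no covariate, 2 residual and 3.62 prior degrees of freedom) over all genes, with Benjamini-Hochberg adjustment and a threshold of 0.05. SE is the moderated standard error, and intervals are 95%. An exact two-sided permutation test of 2 arrays against 2 cannot give a p below 0.333. The fit was tested on simulated data drawn with its own variance prior, so that test does not show how it performs on these arrays. The members, lists and naming rule were chosen with earlier results of these data known. The rule names all members, 3 genes with the largest difference between genotypes and the brightest of each absorption list, 2 genes of each marker list with the largest difference between the Hdc+/+ arrays and its markers below every array's median gene, and the nearest profiles. Cdx1, Cdx2, Fabp6, Slc10a2, Slc5a1, Slc15a1, Clps, Dcn, Clca1, Agr2, Spink4, Krt4, Cblif, Pgc, Gkn1, Col3a1 and Gkn2 were added after their values were seen. Alternatives covered dim genes, probe set averaging, normalization, the prior, a replicate block and each array left out. Gene locations and neighbours are from GRCm38.p6, and the genes of the lists that had no probe set with 1 symbol were not analysed here.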

Additional observations from a re-analysis of the deposited data

How the results depend on the processing

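Of 135 member differences recomputed under alternatives, 126 kept their direction and their side of the threshold, 5 became calls and 4 changed sign. Leaving out dim genes, averaging or testing every probe set, changing the prior and blocking cannot change a member's difference, only its p-value. With 0 calls in the main fit, no call could be lost. The sign changes were Mep1a (-0.16 without Hdc-/- replicate 2 and -0.17 without Hdc+/+ replicate 1), Anpep (-0.091 without Hdc+/+ replicate 1) and Mep1b (0.0011 without Hdc+/+ replicate 2). Leaving out single arrays, their differences ran from -0.17 to 0.20 (Mep1a), from -0.091 to 0.59 (Anpep) and from -2.46 to 0.0011 (Mep1b). Over the same 4 fits, the members lower at an adjusted p under 0.05 numbered from 0 to 4, those lower at an unadjusted p under 0.05 from 3 to 8, those without overlap and lower from 6 to 9, and the median member difference ran from -3.45 to -1.12. The 70 pathway genes had from 0 to 12 lower at an adjusted p under 0.05 and from 10 to 47 at an unadjusted p under 0.05. Leaving out arrays and changing the prior for the pathway lists, and summing marker lists without their brightest genes, were chosen after seeing the data. With 1 array left out, the overlap check compares 2 arrays with 1 and is passed more often. Of all genes, 27.8% to 33.6% were then without overlap and lower, against 17.6% on all 4 arrays. The member counts without overlap in those fits therefore do not compare directly with the 6 on all 4 arrays. The shares of all genes at an unadjusted p under 0.05 in those fits are given with the pathway counts above. A fit without Hdc+/+ replicate 1 rests that genotype on replicate 2 alone. The median member difference was -3.91 without the dimmest 50% of genes, where fewer members were left. With a trended and robust prior 3 members were lower at an unadjusted p under 0.05, and the cause was not tested. Deviations of same-numbered arrays were weakly correlated over genes (r = -0.12). With 2 arrays per genotype, that value cannot show whether the replicate numbers pair the samples. With the replicate number as a block limma called 1 member lower, Fabp2 (-3.92, adjusted p = 0.0242), and 7 genes in all against 1 without the block. A block that crosses the numbers, chosen after seeing the data, gave 0 calls. Quantile and cyclic loess normalization, centring, averaged probe sets and testing every probe set also called 0 members. Each member had 1 probe set, so averaging left its values as they were. No background values were used here, so signal over background limits Mep1a and other dim genes to an unknown extent.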
